A study of Homo sapiens with 18 samples.

Results

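The cytosolic ribosomal protein genes are the 77 nuclear genes whose products, with the ribosomal RNAs, build the ribosome of the cytoplasm. They were chosen by symbol alone from a table of 56269 genes, as RPL or RPS followed by digits and an optional A or X, with RPLP0, RPLP1, RPLP2 and RPSA added. Of the 77 genes, 46 code for proteins of the large subunit (RPL) and 31 for proteins of the small subunit (RPS), and they lie on 21 chromosomes. Symbols of pseudogenes and of paralogues such as RPS27L or RPL22L1 were not taken, nor was FAU, which codes for a ribosomal protein fused to a ubiquitin-like protein.

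Expression was measured by RNA-Seq of polyA RNA in IMR90 cells, a widely used strain of primary human lung fibroblasts, grown in EMEM with 15% FBS. The pre-incubation lasted 6 h and was with PBS or with hyaluronan at 20 μg/ml, either cNSF-HA or fNSF-HA. NSF-HA is hyaluronan made by naked mole-rat skin fibroblasts, fNSF-HA is the same hyaluronan partially fragmented with hyaluronidase, and cNSF-HA is its control treated with heat-inactivated enzyme. Cells were collected after the pre-incubation (groups PBS, cNSF-HA and fNSF-HA) or after a later exposure to tBHP, an organic peroxide (groups PBS+tBHP, cNSF-HA+tBHP and fNSF-HA+tBHP). For the latter, the hyaluronan was removed before tBHP was given at 200 μM for 1 h, and collection was 6 h after the start of that exposure. Each group held 3 libraries. The cells without tBHP were therefore collected earlier, and the effect of tBHP and that of the later collection cannot be told apart. By the study's methods the replicates are biological, and the labels do not name the culture or day of each.

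The 18 libraries held 20261103 to 26287660 reads. All 10 fibroblast markers examined had a mean value of at least 10, and 8 of them of at least 1000. The 8 epithelial markers summed to 733 to 1561, nearly all of it CLDN4 (mean 1294) and MUC1 (49.8), while KRT5, SFTPC and SFTPB were at 0 in every library. The 6 endothelial markers summed to 713 to 1461, nearly all of it TEK (mean 1131) and VWF (13.0), while CDH5 was at 0. The sum of 7 leukocyte markers was 26.5 to 86.2. The part of other cell types in the results was not tested. Among libraries with tBHP, library 3 of cNSF-HA+tBHP and library 2 of fNSF-HA+tBHP differed most from their replicates (chi-square per degree of freedom of 25.7 or more and of 29.3 or more), and library 1 of PBS+tBHP differed from its own by 16.9 and 14.3, against 4.06 between the other 2. Some of the counts, medians and correlations that rest on these libraries are also given with 1 or more of them left out. Other counts, medians and correlations, and values of single genes, are from all libraries unless said otherwise.

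A ribosome holds 1 copy of nearly every protein, so the genes for these proteins are transcribed at high and similar rates in growing cells. Their mRNAs usually begin with a 5′ terminal oligopyrimidine (TOP) tract, a run of C and T that starts at the cap and through which mTOR signalling, by way of LARP1, controls how well the mRNA is translated and kept. When ribosome assembly is disturbed, free RPL5 and RPL11, bound to 5S rRNA, can bind MDM2, the ubiquitin ligase that keeps p53 low, and several other free ribosomal proteins have been described to do the same. Ribosomal protein genes have also given rise to many processed pseudogenes.

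The start sites are shown because the TOP tract is the feature by which these mRNAs are best known. For 62 of the 77 genes a transcription start was found among the RefSeq promoter sequences (build GRCh38.p14). The windows run from 10 bases before the start to the 20th base of the transcript on the strand of the gene, and capitals mark the longest run of C and T that overlaps the stretch from 5 bases before the start to the 6th base of the transcript. The first 6 genes rose with tBHP in PBS cells, and the last 5 did not.

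RPS27 (chr1:153990752-153990781, + strand): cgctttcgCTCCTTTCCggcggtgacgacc
RPL12 (chr9:127451387-127451416, - strand): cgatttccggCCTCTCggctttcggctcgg
RPL28 (chr19:55385922-55385951, + strand): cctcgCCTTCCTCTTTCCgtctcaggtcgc
RPL11 (chr1:23691796-23691825, + strand): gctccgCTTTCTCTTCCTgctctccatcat
RPS6 (chr9:19380217-19380246, - strand): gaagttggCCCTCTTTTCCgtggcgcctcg
RPLP0 (chr12:120201092-120201121, - strand): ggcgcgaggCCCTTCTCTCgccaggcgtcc
RPL39 (chrX:119791611-119791640, - strand): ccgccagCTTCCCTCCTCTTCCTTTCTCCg
RPL36A (chrX:101391001-101391030, + strand): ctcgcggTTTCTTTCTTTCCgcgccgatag
RPL22 (chr1:6199576-6199605, - strand): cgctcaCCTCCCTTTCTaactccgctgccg
RPL9 (chr4:39458903-39458932, - strand): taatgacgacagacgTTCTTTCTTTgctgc
RPS13 (chr11:17077648-17077677, - strand): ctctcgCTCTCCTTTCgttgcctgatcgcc

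Genes with and without a rise thus both carried such a run, and the longest run among those shown, 22 bases in RPL39, belonged to a gene that fell. Over the 62 genes the longest run had a median of 11.5 bases, against 4 bases over the 27305 symbols of the promoter table. A run of at least 8 bases was present in 51 of 62 genes (82.3%), against 14.1% of all symbols. Runs of A and G of that length, the same test on the opposite strand, were present in 3.23% of the genes and 10.6% of all symbols. On the transcript strand, CTTTC stood in the windows of 53.2% of the genes and of 5.29% of all symbols. CTTTTC stood in 17.7% and 1.56% of them. The third word, CTTCC, stood in 38.7% and 8.74%. These words can overlap one another, and at least 1 of them stood in 82.3% and 14.5%. TATAAA, sought between 40 and 15 bases before the start, was present in 3.23% and 2.90%. Across the 62 genes the length of the run had a Spearman correlation of -0.12 with the log2 change with tBHP in PBS cells, given as a description over genes that share libraries.

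In cells pre-incubated with PBS alone, levels of the 77 genes spanned a wide range once they were divided by transcript length. Values are DESeq2-normalised counts per kb, with the median length of the protein-coding transcripts of each gene in GENCODE release 29. The median gene had 11775 per kb, and the middle 50% of the genes lay between 7935 and 16519. The highest were RPLP1, an acidic protein of the lateral stalk that recruits translation factors, at 31983, RPS18, a protein of the small subunit head, at 25727, and RPLP0, the base of the stalk, at 24339. The lowest were RPL17 at 230.1, RPL36A at 208 and RPS10 at 124. These 3 low genes are each overlapped in GENCODE by an annotated read-through gene (RPL17-C18orf32, RPL36A-HNRNPH2 and RPS10-NUDT3). All 3 read-through rows held 0 reads in every library, and the levels of the 3 genes are uncertain for that reason. RPL39, at 1074 per kb, has no such neighbour.

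Reads on 1002 rows that carry the name of a ribosomal protein pseudogene made up 0.0229% ± 0.000372 (SD, n = 3) of the PBS libraries, against 3.40% ± 0.0842 for the 77 genes. Reads that a pseudogene copy could take or give were the most for RPL17 (its pseudogene rows held 16.1% as many reads as the gene), RPL23A (10.2%) and RPS2 (9.65%).

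Without tBHP, the share of reads on the 77 genes was nearly constant. It was 3.40% ± 0.0842 in PBS, 3.45% ± 0.0893 in cNSF-HA and 3.38% ± 0.0377 in fNSF-HA (SD, n = 3 each). With tBHP it was 4.18% ± 0.142 in PBS+tBHP, 4.69% ± 0.742 in cNSF-HA+tBHP and 4.15% ± 0.370 in fNSF-HA+tBHP. Every library with tBHP lay above every library without it, since the lowest with tBHP had 3.74% and the highest without it 3.55%. With tBHP the share was 1.23, 1.36 and 1.23 times as high after PBS, cNSF-HA and fNSF-HA. Library 3 of cNSF-HA+tBHP had 5.55%, against 4.20% and 4.33% in its replicates, and without it the ratio in cNSF-HA cells was 1.24. Library 2 of fNSF-HA+tBHP had 3.74%, against 4.22% and 4.47%, and without it the ratio in fNSF-HA cells was 1.29. These are shares of the RNA of a culture, and fewer cells of a type and less RNA per cell cannot be told apart.

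**Figure D1:**
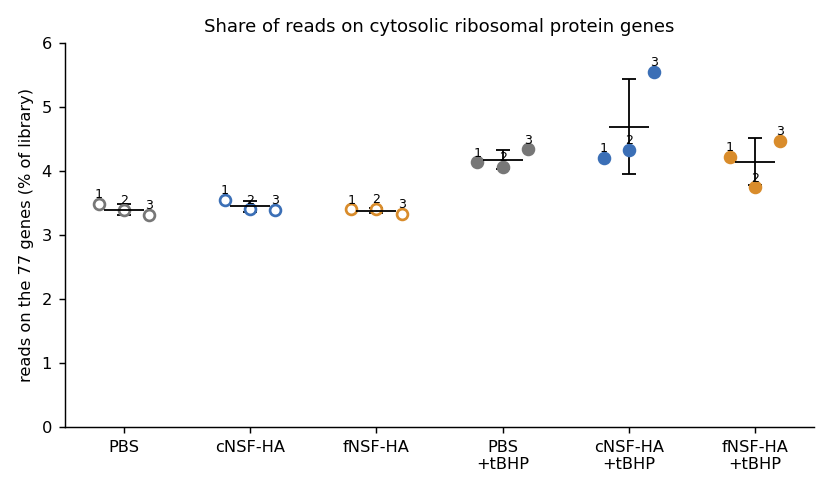
Share of all reads that fell on the 77 genes (%, vertical axis) in each of the 18 libraries, by group. Points are libraries with their replicate number, open without and filled with tBHP, and the black line and bar are the mean and SD of 3 libraries. All 9 libraries with tBHP lie at or above 3.74%, and library 3 of cNSF-HA+tBHP lies highest at 5.55%.

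Both subunits gained. The share on large subunit genes was 1.23 times as high in PBS cells with tBHP and that on small subunit genes 1.22 times, and the corresponding ratios were 1.36 and 1.35 after cNSF-HA and 1.22 and 1.23 after fNSF-HA. The share on pseudogene rows was 1.31, 1.24 and 1.30 times as high.

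Gene by gene, tBHP was followed by a broad rise of the mRNAs of the ribosome. Of the 77 genes, all of which passed the filter on low values, 54 were called higher and 2 lower in PBS cells, by limma with an adjusted p under 0.05. The background in this comparison was high, since 24.2% of the 13686 genes tested were called higher and 26.9% lower. After cNSF-HA 72 were called higher and 2 lower (background 24% and 26.8%), and after fNSF-HA 49 and 2 (background 19.2% and 22.7%). The median log2 change of the 77 genes was 0.36 after PBS, 0.49 after cNSF-HA and 0.32 after fNSF-HA, against medians over all genes tested of 0.0043, -0.00053 and -0.034. Without library 1 of PBS+tBHP, 49 were called higher and 2 lower in PBS cells with a median of 0.34 (background 20.7% and 23.3%). Without library 3 of cNSF-HA+tBHP and library 2 of fNSF-HA+tBHP, a choice made after seeing the data, 70 were called higher and 3 lower after cNSF-HA with a median of 0.37 (background 26.9% and 28%), and 72 and 2 after fNSF-HA with a median of 0.41 (background 26.9% and 28.6%).

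The size of the change was alike among most of the genes. In PBS cells the middle 50% of the 77 genes changed by 0.28 to 0.42 on the log2 scale, while the middle 50% of all genes tested lay between -0.37 and 0.32. The standard error of the log2 change had a median of 0.092 over the 77 genes. The values of the PBS+tBHP libraries lay above those of the PBS libraries without overlap for 67 genes (background 31.8%) and below them for 3, RPL22, RPL36A and RPL39 (background 32%). The large subunit had 31 genes that rose and 2 that fell of 46, with a median of 0.37, and the small subunit 23 that rose and 0 that fell of 31, with a median of 0.31. On the reads, edgeR called 66 higher and 2 lower in PBS cells (background 29.7% and 23.5%), and DESeq2 58 and 2 (background 25.3% and 27.1%).

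The responses after the 3 pre-incubations rest on separate libraries. The number of genes that rose in each of the 3 was 42, of which 24 were of the large and 18 of the small subunit, against 14.6% of all genes tested. RPL36A and RPL39 fell in each, against 17.9% of all genes tested. RPL17, RPL22 and RPS10 passed the threshold in none. Without library 3 of cNSF-HA+tBHP and library 2 of fNSF-HA+tBHP, 69 genes rose in each of the 3 (background 21.9%), RPL36A and RPL39 fell in each (background 23.7%), and every one of the 77 was called in at least 1. The log2 changes of the 77 genes had a Spearman correlation of 0.87 between PBS and cNSF-HA, 0.43 between PBS and fNSF-HA and 0.46 between the hyaluronan pre-incubations, as a description over genes that share libraries and GC content. Without library 2 of fNSF-HA+tBHP the latter 2 were 0.78 and 0.90.

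**Figure D2:**
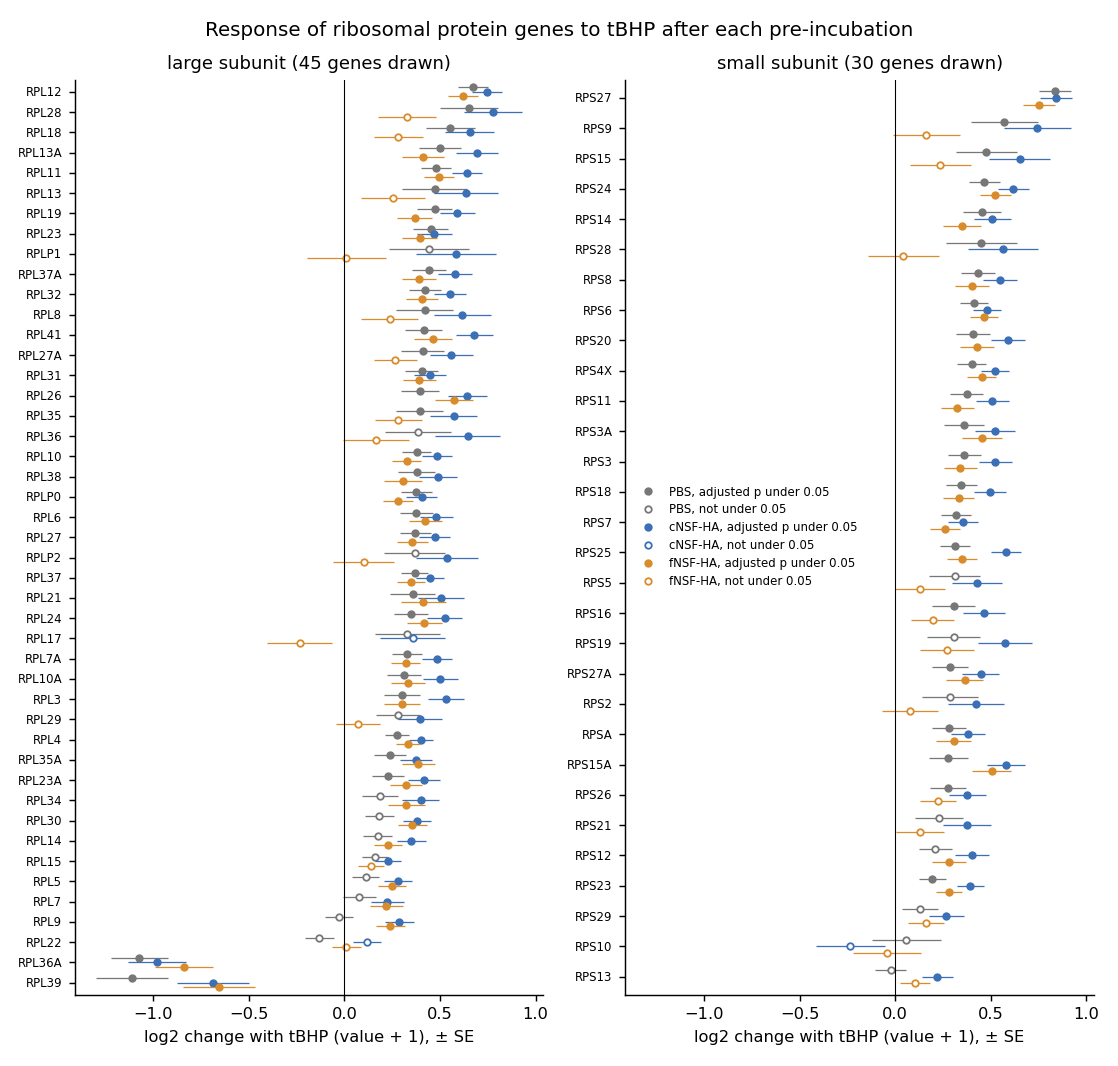
Log2 change with tBHP of 75 of the 77 genes (horizontal axis, log2 of value + 1, with SE), large subunit on the left and small subunit on the right, ordered by the change in PBS cells. Grey, blue and orange are cells pre-incubated with PBS, cNSF-HA and fNSF-HA, and filled points have an adjusted p under 0.05 by limma. Most genes lie between 0.2 and 0.6, RPS27 lies highest among the small subunit genes, and RPL39 and RPL36A lie lowest.

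RPS27, a small subunit protein with a zinc finger, had the most positive change after each of the 3 pre-incubations. Its values were 6277, 6080.1 and 6101 in PBS and 10241, 10763 and 12077 in PBS+tBHP. Those of cNSF-HA were 6654, 6199.8 and 6106, and those of cNSF-HA+tBHP 10576, 10281 and 13371. Those of fNSF-HA were 6338, 6425 and 6299, and those of fNSF-HA+tBHP 10324, 10785 and 11043. No library with tBHP came near any library without it. The log2 change was 0.84 ± 0.083 (SE) in PBS cells with an adjusted p of 2.49e-07 by limma. It was 0.84 after cNSF-HA and 0.75 after fNSF-HA.

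RPL12, which lies beside the stalk on the large subunit, followed in PBS cells and after fNSF-HA, while after cNSF-HA RPL28 came between them. Its values were 9721, 9428 and 9417 in PBS and 14622, 15113 and 15796 in PBS+tBHP, with no overlap. The log2 change was 0.67 ± 0.080 (SE, adjusted p = 2.03e-06 by limma) in PBS cells, 0.74 after cNSF-HA and 0.62 after fNSF-HA. Both genes rose in all 3 responses.

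The next genes by size of change in PBS cells varied more between libraries. RPL28, of the large subunit, had 10929.6, 10664 and 10139 in PBS and 19139, 14675 and 16266 in PBS+tBHP, a log2 change of 0.65 ± 0.15 (SE, adjusted p = 0.00168 by limma). In fNSF-HA+tBHP its values were 14802, 9541 and 16977, so that library 2 lay below every library without tBHP, and the change of 0.33 was not called there. Without that library the change was 0.57 and was called (adjusted p = 0.000149 by limma). RPS9, which acts in decoding accuracy on the small subunit, had 3301, 4299 and 4212 in PBS and 6463, 5455 and 5559 in PBS+tBHP. Its log2 change was 0.57 ± 0.18 (SE, adjusted p = 0.0118 by limma), and the adjusted p was 0.0678 without PBS library 1, which had the lowest value, and 0.0537 without PBS+tBHP library 1, which had the highest. RPL18, of the large subunit, rose by 0.55 on the log2 scale in PBS cells and by 0.65 after cNSF-HA. Its change after fNSF-HA, 0.28, was not called. With the trend with GC content and length removed, the change in PBS cells was 0.28 for RPL18, 0.30 for RPS9 and 0.42 for RPL28, each still called. The change of RPL18 after cNSF-HA was 0.26 with that trend removed. Library 2 of fNSF-HA+tBHP held the lowest RPL18 value of all 18 libraries, 8672.

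RPS24, RPS4X, RPS25, RPL11 and RPS6 stood among the smallest p-values after pre-incubation with hyaluronan. RPS24, needed for maturation of 18S rRNA, rose by 0.62 after cNSF-HA and by 0.53 after fNSF-HA, from 9115, 8938 and 8614 to 12396, 12707 and 16121 and from 8698, 9188 and 9164 to 12662, 13179 and 13078. RPS4X, encoded on the X chromosome, rose by 0.52 and 0.45. RPS25, used by several viral internal ribosome entry sites, rose by 0.58 and 0.35 in the same order. RPS6, the small subunit protein that S6 kinases phosphorylate, had 19085, 18779.8 and 18274 in PBS and 23541, 24818 and 26371 in PBS+tBHP, without overlap. It rose by 0.41 ± 0.074 (SE, adjusted p = 0.000172 by limma) in PBS cells, or by 0.66 with the GC and length trend removed, by 0.48 after cNSF-HA and by 0.47 after fNSF-HA.

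RPL39 and RPL36A went the other way. RPL39 codes for a very short protein that lines the exit tunnel of the large subunit. Its values were 459.6, 419.9 and 412 in PBS and 142, 236 and 233 in PBS+tBHP. With cNSF-HA they were 406, 374 and 370.1, and 184, 223 and 325 after tBHP. With fNSF-HA they were 398, 448 and 448, and 308, 282 and 235 after tBHP. In each pair of groups every library with tBHP was below every library without it. The log2 change was -1.11 ± 0.19 (SE, adjusted p = 8.88e-05 by limma) in PBS cells, -0.69 after cNSF-HA and -0.66 after fNSF-HA.

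RPL36A, a large subunit protein near the site that deacylated tRNA leaves, had 131, 137 and 163 in PBS and 54.5, 75.1 and 75.5 in PBS+tBHP. With cNSF-HA it had 159, 148 and 133, and 76.9, 76.1 and 68.1 after tBHP. With fNSF-HA it had 140.3, 154 and 153, and 78.9, 99.99 and 71.8 after tBHP. The groups did not overlap. The log2 change was -1.07 ± 0.15 (SE, adjusted p = 1.33e-05 by limma) in PBS cells, -0.98 after cNSF-HA and -0.84 after fNSF-HA. Both genes lie on the X chromosome, as do RPL10 and RPS4X, which rose after each pre-incubation (by 0.38 and 0.40 in PBS cells). RPL39 and RPL36A are among the 4 members with the fewest reads per kb, and for RPL36A the overlapping read-through gene named above applies. Counting error alone amounted to 69.5% of the variance of log2 values between replicates for RPL36A and to 10.7% for RPL39. Without RPL17, RPL36A, RPL39 and RPS10 the 73 remaining genes had a median of 0.37 in PBS cells. Of these, 54 rose and 0 fell, which follows from the choice of genes left out. RPL36A and RPL39 were the only genes called lower there, and RPL17 and RPS10 were not called.

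**Figure D3:**
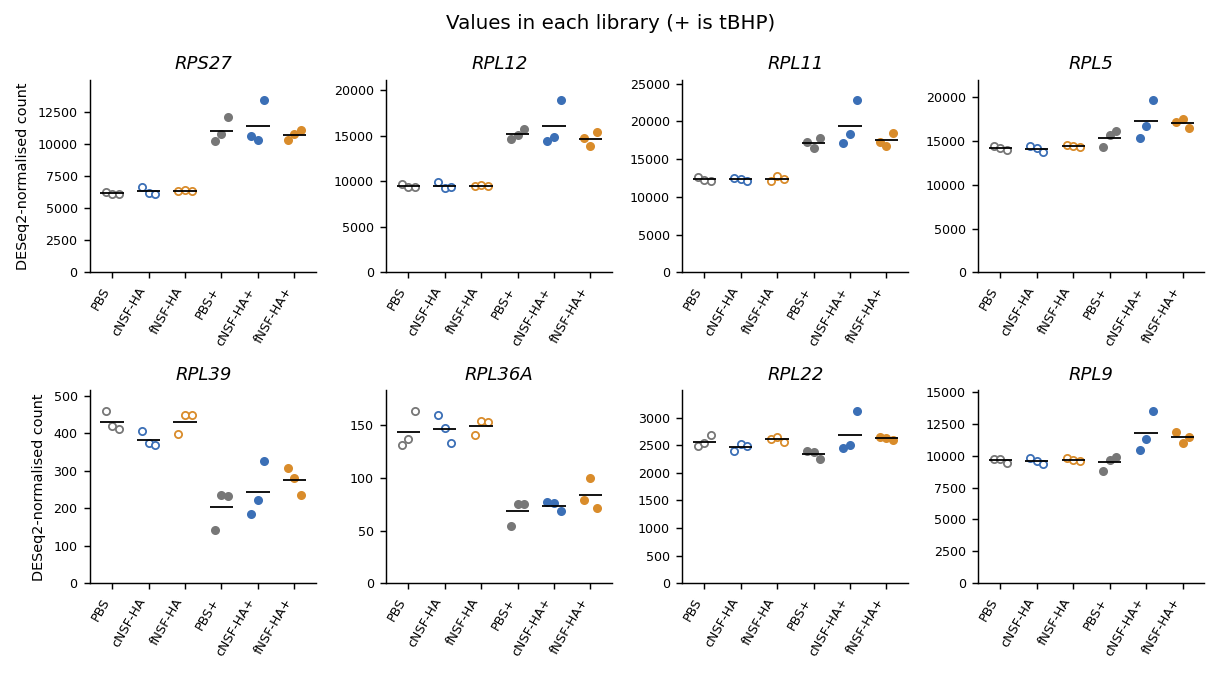
DESeq2-normalised counts (vertical axis, starting at 0) in each library for 8 of the 77 genes, by group (+ is tBHP), with points for libraries (open without and filled with tBHP) and a line for the mean of 3. RPS27, RPL12 and RPL11 are higher and RPL39 and RPL36A lower with tBHP without overlap within each pre-incubation, while RPL5, RPL22 and RPL9 overlap or shift little in PBS cells.

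Among genes with a mean of at least 100, RPL22, RPL9, RPS13 and RPL7 were the next lowest in PBS cells, and none of them was called there. RPL22, an RNA-binding protein of the large subunit with a close paralogue in RPL22L1, had 2478, 2543 and 2676 in PBS and 2397, 2382 and 2248 in PBS+tBHP, a difference of -0.13 ± 0.076 (SE, adjusted p = 0.159 by limma). RPL9, of the large subunit, had 9714, 9773 and 9429 in PBS and 8826, 9697 and 9876 in PBS+tBHP, which overlap, with a difference of -0.03. RPL9 rose in the other 2 pre-incubations, by 0.29 after cNSF-HA, with 10429, 11296 and 13499 after tBHP, and by 0.24 after fNSF-HA, with 11819, 11018 and 11463. The differences of RPS13 and RPL7 in PBS cells were -0.02 and 0.08. With edgeR, whose scaling moves the median of all genes by 0.071 in this comparison, RPL9 and RPS13 came to 0.04 each, and RPL9 and RPL22 came to 0.23 and 0.16 once a trend with GC content and length was removed, with RPL9 then called (adjusted p = 0.000411 by limma).

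Of the partners of 5S rRNA, RPL11 was called in PBS cells and RPL5 was not. RPL11 had 12644, 12238 and 12149 in PBS and 17251, 16542 and 17829 in PBS+tBHP and rose by 0.48 ± 0.079 (SE, adjusted p = 6.89e-05 by limma). RPL5 had 14441, 14235 and 13931 in PBS and 14298, 15619.9 and 16132 in PBS+tBHP, with overlap, and its difference of 0.11 ± 0.073 (SE, adjusted p = 0.218 by limma) was not called. After pre-incubation with cNSF-HA both rose, RPL11 by 0.64 and RPL5 by 0.28, and after fNSF-HA RPL11 rose by 0.49 and RPL5 by 0.25. RPL5 was called in PBS cells by edgeR (0.18, adjusted p = 0.0426) and with the GC and length trend removed (0.23, adjusted p = 1.55e-05). The difference between RPL11 and RPL5 itself was not tested. Of further genes whose proteins have been described to bind MDM2, a list of 9 that is not complete (RPL23, RPL26, RPS3, RPS7, RPS14, RPS20, RPS25, RPS27 and RPS27A) was examined. These rose in 9 of 9 cases after each pre-incubation, with medians of 0.40, 0.52 and 0.36, a count that depends on which genes were listed. The list was chosen with earlier results of these data known. Among all 77 genes 70.1%, 93.5% and 63.6% rose, with the medians of 0.36, 0.49 and 0.32 given above. RPS27A, which is made as a fusion with ubiquitin, had 10644, 10286 and 10054 in PBS and 11366, 12869 and 13692 in PBS+tBHP, and rose by 0.29 ± 0.096 (SE, adjusted p = 0.0178 by limma). That call was lost without library 3 of PBS (adjusted p = 0.0588) or of PBS+tBHP (0.0871) and with quantile normalization (0.0993).

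The stalk proteins varied between libraries with tBHP. RPLP0 had 27602, 26717 and 26401 in PBS and 35582, 33363 and 35875 in PBS+tBHP, and rose by 0.38 ± 0.079 (SE, adjusted p = 0.000735 by limma), although its adjusted p was 0.141 with quantile normalization and its change was 0.19, still called, with the GC and length trend removed. RPLP1 had 14608, 14184 and 13906 in PBS and 23125, 17082 and 18292 in PBS+tBHP, without overlap, and its change of 0.44 ± 0.21 (SE, adjusted p = 0.0839 by limma) was not called. In fNSF-HA+tBHP RPLP1 ranged from 8539.8 in library 2 to 21061 in library 3, below and above every fNSF-HA library. RPLP2 had 5493 and 10345 in the same 2 libraries, and 0.37 ± 0.16 (SE, adjusted p = 0.0634 by limma) in PBS cells. With the GC and length trend removed their changes were 0.28 and 0.08, neither called. With edgeR both were called in PBS cells, at 0.52 (adjusted p = 0.0437) and 0.44 (adjusted p = 0.033). With limma on only the PBS and PBS+tBHP libraries both were called as well (adjusted p = 0.00147 and 0.000653), and with the replicate number as a block RPLP2 was (adjusted p = 0.0415). After cNSF-HA both rose, RPLP1 by 0.58 (adjusted p = 0.0256 by limma) and RPLP2 by 0.54 (adjusted p = 0.0095 by limma). Without library 3 of cNSF-HA+tBHP alone, RPLP1 was called in none of the 3 responses. RPSA, a small subunit protein also known as the laminin receptor precursor, rose by 0.28 ± 0.090 (SE, adjusted p = 0.0147 by limma) in PBS cells, and its adjusted p was 0.0609 without PBS library 3, 0.0525 without PBS+tBHP library 3 and 0.104 with quantile normalization. With the GC and length trend removed its change was 0.18, still called.

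Transcripts outside the 77 genes that are described as TOP mRNAs or that share a sequence moved in both directions. Of 22 other transcripts described as TOP mRNAs, mainly of translation factors, 9 rose and 3 fell in PBS cells with a median of 0.17, against 14 and 2 after cNSF-HA and 11 and 1 after fNSF-HA. The backgrounds were those given above, 24.2% and 26.9% in PBS cells. Of 16 genes of this TOP list with a start among the promoter sequences, 9 (56.3%) had a run of C and T of at least 8 bases. The share was 82.3% for the 62 ribosomal protein genes. Elongation factor EEF2 rose by 0.53, and RACK1, a scaffold on the small subunit, by 0.44, while the initiation factor subunit EIF3E and the snoRNA host SNHG1 fell by 0.60 and 0.55 in PBS cells. In PBS cells, 3 of the 8 paralogues and fusion genes that passed the filter on low values rose and 2 fell, beside the same background. RPS27L, a p53 target, rose by 0.47 and FAU by 0.42, while RPL7L1 and RPL22L1 fell by 0.46 and 0.44. RPS27 and RPS27L thus both rose, whereas RPL22L1 fell from 1480.3, 1517 and 1463 to 928, 1173 and 1200.3 and its paralogue RPL22 was not called.

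Features of the genes that the choice by symbol did not use were compared with the tBHP response. Of the 77 genes, 28 hold 60 snoRNA genes in GENCODE. Their median log2 change in PBS cells was 0.36, against 0.35 for the other genes. Transcript length had a Spearman correlation of -0.04 with the change over the 77 genes, and GC content, which ranged from 42.6% to 62.4%, one of 0.42, 0.50 and -0.29 after PBS, cNSF-HA and fNSF-HA. Without library 2 of fNSF-HA+tBHP the last of these was 0.33, and without library 3 of cNSF-HA+tBHP the second was 0.49. The PBS+tBHP libraries were unlike in this. Against the PBS mean, the 26 genes of highest and the 26 of lowest GC content had medians of 0.49 and 0.18 in library 1. The same medians were 0.29 and 0.25 in library 2, and 0.39 and 0.33 in library 3. With a trend of each library with GC content and length removed, 60 genes rose and 2 fell after PBS, 67 and 3 after cNSF-HA and 56 and 2 after fNSF-HA, with medians of 0.27, 0.34 and 0.22. Of the 12528 genes in that fit, 28.5%, 28.9% and 28.1% rose and 29.5%, 28.7% and 28.9% fell. The part of GC content in the rise was not otherwise tested.

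**Figure D4:**
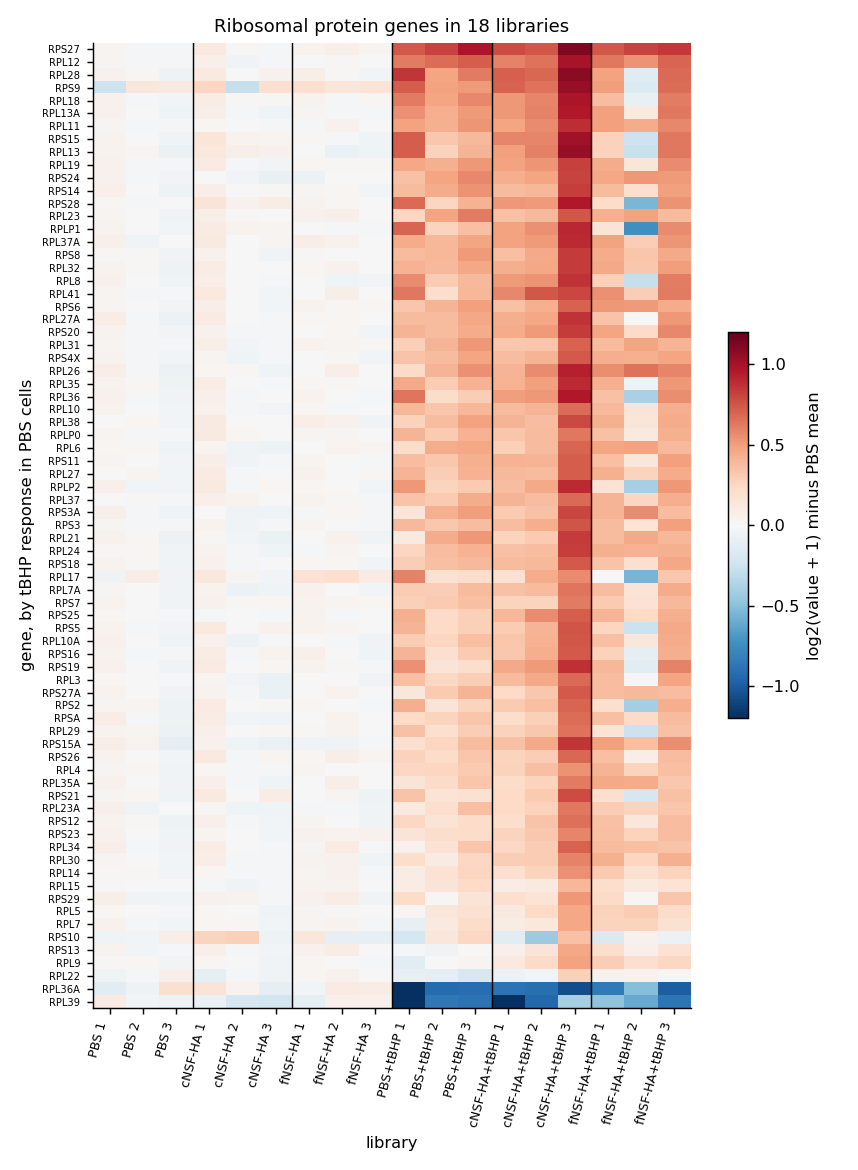
Log2 of value + 1 minus the mean of the 3 PBS libraries for 75 of the 77 genes (rows, ordered by the tBHP response in PBS cells) in the 18 libraries (columns), with vertical lines between groups and values beyond the colour scale drawn in its end colours. The 9 libraries without tBHP are near 0, most genes are above 0 in the 9 with tBHP, RPL39 and RPL36A at the bottom are below 0, and library 3 of cNSF-HA+tBHP and library 2 of fNSF-HA+tBHP differ from their neighbours.

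The spread between replicates bore on every comparison of pre-incubations after tBHP. The SD of log2 values within a group had a median over the 77 genes of 0.044 in PBS, 0.052 in cNSF-HA and 0.027 in fNSF-HA, and of 0.087, 0.22 and 0.13 in the same groups with tBHP. Over all genes the medians were 0.069, 0.070 and 0.063 without tBHP and 0.15, 0.15 and 0.22 with it. Only in cNSF-HA+tBHP was the median of the 77 genes the higher one. In library 3 of cNSF-HA+tBHP, 76 of the 77 genes were above their group mean, with a median deviation of 0.24. Library 2 of fNSF-HA+tBHP had a median deviation of -0.12. Against the PBS mean, the 26 genes with the highest GC content (52.3% to 62.4%) had a median of -0.16 in that library and the 26 with the lowest (42.6% to 47.6%) one of 0.29. In library 3 of cNSF-HA+tBHP the same 2 sets had medians of 0.87 and 0.65. The median over all genes tested deviated by 0.010 and 0.016 in these libraries.

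Without tBHP, the 77 genes differed little between pre-incubations. By limma on all libraries, 0 of the 77 genes passed in cNSF-HA against PBS, fNSF-HA against PBS or cNSF-HA against fNSF-HA (background 0 of 13686 in each), 0 also had an unadjusted p under 0.05 (background 0.416% higher and 0.504% lower, 0.263% and 0.533%, and 0.818% and 0.687% in the same order), and edgeR and DESeq2 called 0. With the spread taken from only the 2 groups compared, RPL13, of the large subunit, was called higher in cNSF-HA than fNSF-HA at 0.12 (adjusted p = 0.00377 by limma, background 1.78% higher and 5.38% lower). The medians were 0.01 for cNSF-HA minus PBS, 0.01 for fNSF-HA minus PBS and -0.0041 for cNSF-HA minus fNSF-HA, and single genes differed by -0.17 to 0.18. The smallest unadjusted p-values belonged to RPS10 and RPL39 in the first comparison, RPS9 and RPL17 in the second and RPL22 and RPS10 in the third, at differences of 0.16, -0.17, 0.17, 0.16, -0.08 and 0.18. The PBS comparisons share the PBS libraries.

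With tBHP, 0 of the 77 genes passed by limma or edgeR in any of the same 3 comparisons, yet most lay on 1 side in those with cNSF-HA. For cNSF-HA minus fNSF-HA the median was 0.14 and 72 of the 77 genes were above 0, against a median over all genes of -0.029. An unadjusted p under 0.05 was reached by 27 genes, all higher (background 15.6% higher and 16.7% lower, with 0 of 13686 past the adjusted threshold by limma and by edgeR), and DESeq2 called 1 higher and 0 lower (background 2.42% and 4.94%). RPL28 had 17344, 17042 and 22384 in cNSF-HA+tBHP and 14802, 9541 and 16977 in fNSF-HA+tBHP, without overlap. Its difference was 0.49 ± 0.15 (SE, adjusted p = 0.0981 by limma, and 0.0504 by DESeq2). Without library 2 of fNSF-HA+tBHP it was 0.24 ± 0.11 (SE, adjusted p = 0.572 by limma).

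For cNSF-HA minus PBS the median was 0.16, 76 genes were above 0 and 18 had an unadjusted p under 0.05 (background 3.78% higher and 4.86% lower). The smallest p-values were those of RPL9, at 0.30 ± 0.075 (SE, adjusted p = 0.386 by limma), and RPS25, at 0.25 ± 0.077 (SE, adjusted p = 0.497 by limma). DESeq2 called 0 (background 0.0485% higher and 0.0243% lower). For fNSF-HA minus PBS the median was -0.0040, 37 genes were above 0, and 6 higher and 3 lower had an unadjusted p under 0.05 (background 11.7% and 11%, with 0.117% and 0.0219% past the adjusted threshold). RPL9 again had the smallest p, at 0.27 ± 0.075 (SE, adjusted p = 0.0964 by limma), and was called by DESeq2 (adjusted p = 0.0314, background 2.97% higher and 1.02% lower). RPL30, which binds its own pre-mRNA in yeast, differed by 0.19 ± 0.076 (SE, adjusted p = 0.175 by limma).

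The offset of cNSF-HA cells depended on which libraries were kept. Library 3 of cNSF-HA+tBHP has the highest and library 2 of fNSF-HA+tBHP the lowest share of reads on these genes in its group, and both were picked after seeing that. Leaving both out therefore had to lower the difference of cNSF-HA minus fNSF-HA, whose median was then -0.04 with 20 of 77 genes above 0. Without library 3 of cNSF-HA+tBHP alone the median was 0.02 with 41 above 0, and without library 2 of fNSF-HA+tBHP alone it was 0.08 with 72 above 0. Leaving out each of the other 4 libraries singly gave medians of 0.15 to 0.22. For cNSF-HA minus PBS the median was 0.04 with 57 above 0 without library 3 of cNSF-HA+tBHP, and 0.16 with 70 above 0 without library 1 of PBS+tBHP.

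For fNSF-HA minus PBS the median without both libraries was 0.06, and 3 genes were called higher (background 0.358% higher and 0.102% lower). They were RPL9 (0.30, adjusted p = 0.0201 by limma), RPL30 (0.24, adjusted p = 0.0379 by limma) and RPS13 (0.22, adjusted p = 0.0482 by limma). Leaving out library 3 of fNSF-HA+tBHP, which keeps library 2, gave 32 genes called higher and 0 lower with cNSF-HA than with fNSF-HA (background 19.7% and 21.1%), and 2 higher and 12 lower in fNSF-HA than in PBS (background 13.9% and 15.5%).

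The differences also followed GC content. Across the 77 genes the Spearman correlation of GC content with the log2 difference was 0.81 for cNSF-HA minus fNSF-HA, 0.22 for cNSF-HA minus PBS and -0.80 for fNSF-HA minus PBS. Without library 2 of fNSF-HA+tBHP it was 0.70 for the first and -0.47 for the third, and without library 3 of cNSF-HA+tBHP as well 0.68, 0.17 and -0.47. For cNSF-HA minus fNSF-HA the 26 genes of highest GC content had a median of 0.33 and the 26 of lowest 0.05, against 0.15 and 0.03 without library 2 of fNSF-HA+tBHP. For fNSF-HA minus PBS the same sets had medians of -0.18 and 0.09, against 0.02 and 0.13 without that library. Removing the GC and length trend left medians of 0.10, 0.08 and -0.02 for the 3 comparisons. For RPL28 the difference of 0.49 became 0.25. These correlations are descriptions over genes that share libraries, and the part of GC content in the differences was not otherwise tested.

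**Figure D5:**
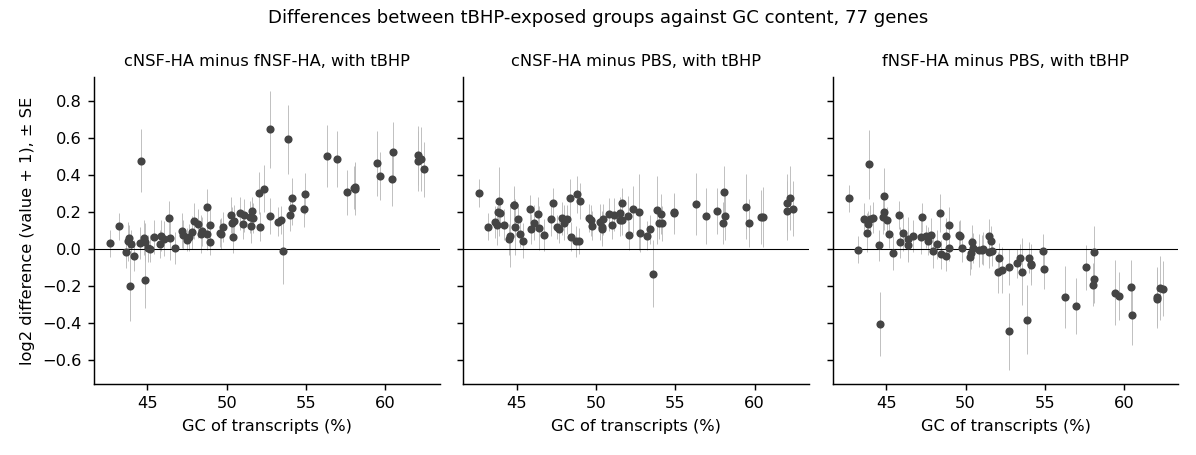
Log2 difference between groups with tBHP (vertical axis, with SE) against the GC content of the transcripts (%, horizontal axis) for the 77 genes, for cNSF-HA minus fNSF-HA, cNSF-HA minus PBS and fNSF-HA minus PBS. The differences rise with GC content on the left (Spearman 0.81), show a weaker slope in the middle (0.22) and fall on the right (-0.80).

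The difference between the responses to tBHP was also tested directly. By limma, 0 of the 77 genes passed (background 0 of 13686 in each). The response of cNSF-HA cells exceeded that of PBS cells by a median of 0.15, with 5 genes higher at an unadjusted p under 0.05 (6.49% of the 77, background 2.12% higher and 1.94% lower), and that of fNSF-HA cells by 0.14, with 4 (5.19%, background 2.35% and 1.54%). For fNSF-HA against PBS cells the median was -0.02, with 1 gene higher and 1 lower, RPL9 and RPL17 (background 3.83% and 3.05%). edgeR and DESeq2 called 0 of the 77 genes in each of the 3 tests. The smallest adjusted p over the 3 tests was 0.667 by limma. Without library 3 of cNSF-HA+tBHP and library 2 of fNSF-HA+tBHP, the medians were 0.02, -0.03 and 0.05.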

How the data were processed

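RNA-Seq was analysed in 18 libraries of IMR90 cells, grouped by their labels. According to the submitters' processing notes and methods, TruSeq RNA V2 libraries (polyA RNA, no strand mark) were sequenced as single-end reads of 100 nt and handled with Trimmomatic 0.32, STAR 2.5.2b, featureCounts of Subread 1.5.0-p3 and DESeq2 on build GRCh38.p7. The annotation is not given in the sources used here. The deposited signal is the read count of a gene divided by the size factor of its library. All values came out as whole reads within 0.01 read. A p-value, a q-value and a rank of the authors' own comparison were not used.

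Log2(value + 1) of the 13686 genes with a mean of at least 10 was tested with limma 3.58.1 in R 4.3.3 (eBayes with trend, a mean for each group, Benjamini-Hochberg over all genes, two-sided p, threshold 0.05). A fold change on this scale understates that of low genes. Alternatives were edgeR 4.0.16 (quasi-likelihood) and DESeq2 1.42.0 on the recovered reads, other pseudocounts (0.1 and 5), no filter, a minimum mean of 50, a common median log2 ratio, quantile normalization, only the compared groups, a replicate block, each library left out, and a GC and length trend removed (natural splines, 5 df, on GENCODE release 29 values, which 91.5% of the genes and all 77 members have). Leaving out library 3 of cNSF-HA+tBHP together with library 2 of fNSF-HA+tBHP, and the correlations and overlaps without them, were chosen after seeing the data. The fits were tested on simulated data. Replicate numbers were not treated as pairs in the main fit, and whether they pair the samples is not known.

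The 77 genes and the lists were chosen with earlier results of these data known. Always named were RPLP0, RPLP1, RPLP2, RPL5, RPL11, RPSA, RPS6 and RPS27A. Also named were the 6 most positive and 6 most negative log2 changes in PBS cells among genes with a mean of at least 100, up to 6 called genes with the smallest adjusted p in each other comparison (or the 2 smallest p where none was called), the 3 highest and 3 lowest levels per kb, and up to 4 called genes of each list outside the 77. RPL22L1 has a paralogue among the 77, and its values beside RPL22 were added after they were seen. One gene that this rule names is not reported here.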

Additional observations from a re-analysis of the deposited data

How the results depend on the processing

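Counts of ribosomal protein genes called in the tBHP response stayed within 1.5 times the reported count under each alternative. They ranged from 41 (quantile normalization) to 69 (only the groups compared) in PBS cells, from 65 to 76 in cNSF-HA cells and from 44 to 58 in fNSF-HA cells. These counts do not show the size of the change. With quantile normalization RPLP0, RPSA and RPS27A changed by 0.11, 0.15 and 0.18 in PBS cells and lost their calls. Of the other named values, 1 changed sign with that setting and 46 kept direction and call. With a library left out they ranged from 42 to 54, from 65 to 74 and from 45 to 71. With the replicate block the counts were 61, 74 and 51, against 56, 74 and 51. Deviations of same-numbered libraries had a median correlation of 0.034, with 7 of 45 pairs over 0.1, and among the named genes the block changed the call of RPLP2 alone (adjusted p = 0.0415).

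Counts between pre-incubations were 0 and moved to 1 with DESeq2 (cNSF-HA against fNSF-HA, and fNSF-HA against PBS, with tBHP), to 1 in only the groups compared (cNSF-HA against fNSF-HA without tBHP) and to 3 without library 3 of cNSF-HA+tBHP and library 2 of fNSF-HA+tBHP (fNSF-HA against PBS with tBHP). With a library left out they ranged from 0 to 32 (cNSF-HA against fNSF-HA with tBHP) and from 0 to 14 (fNSF-HA against PBS with tBHP), the highest without library 3 of fNSF-HA+tBHP. The cause was not tested.

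Log2 changes in PBS cells that changed sign were those of RPL22 (0.16 with GC and length trend removed), RPL9 (0.038 with edgeR, 0.23 with that trend removed, and -0.059 to 0.022 with a library left out, the highest without PBS+tBHP library 1), RPS13 (0.041 with edgeR) and RPL7 (-0.033 with quantile normalization). None of these 4 was called in PBS cells by the reported test. Of 910 alternatives for the named genes, 881 kept direction and call, 9 lost the call, 14 gained one and 6 changed sign. The ratio of the member share in PBS cells was 1.28 on summed deposited values, against 1.23. Counting error was at most 10% of the variance between replicates for 72 of the 77 genes, and more for RPL39 (10.7%), RPL22 (10.98%), RPL17 (22.4%), RPS10 (54.1%) and RPL36A (69.5%).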
